A study of Homo sapiens with 18 samples.

Results

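The comparison described here sets 3 libraries of shNR4A3 cells with LPS against 3 libraries of shNT cells with LPS, 6 of the 18 libraries of the study, chosen by the line and the treatment in their sample descriptions. Both lines derive from THP-1, a human monocytic leukaemia line, and both carry a lentiviral short hairpin RNA. The hairpin of shNR4A3 cells targets NR4A3 and that of shNT cells has no target. All 6 cultures were kept in buffered medium with serum for 2 h and then treated with LPS (lipopolysaccharide, a cell wall component of Gram-negative bacteria) at 2.5 μg/ml for 2 h, so LPS is shared by both groups and is not what is compared. For comparison, the same lines without LPS (3 libraries each) and shNR4A2 cells, which carry a hairpin against NR4A2, with LPS (3 libraries) were also used. Each hairpin is represented by a single line under puromycin selection, so a difference between lines cannot be told apart from an effect of the hairpin, of the sites of integration or of the history of the line. Polyadenylated RNA was sequenced, and the authors deposited the number of reads counted on each of 57500 Ensembl genes (GRCh38). The shNT libraries held 20425843, 20187892 and 21602737 counts and the shNR4A3 libraries 19151880, 16171161 and 21004337. Levels are given as TPM (the count divided by the gene's length and scaled to the same sum in each library), listed in the order of replicates 1, 2 and 3. Fold changes and adjusted p-values come from edgeR's quasi-likelihood test with Benjamini-Hochberg adjustment over the 15578 genes that passed its filter on low counts.

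NR4A3 (NOR1) is an orphan nuclear receptor. With NR4A1 (Nur77) and NR4A2 (Nurr1) it forms a family of immediate early transcription factors that bind DNA without a known physiological ligand, as monomers at the NBRE element or as dimers, and that are switched on within minutes to hours of a stimulus such as LPS. In myeloid cells the family is known for restraining NF-κB-driven inflammatory genes and for roles in monocyte differentiation. LPS is sensed by TLR4, which signals through MyD88 to NF-κB and the cytokine genes and through TRIF to interferon beta and, after it, the interferon-stimulated genes.

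NR4A3 (ENSG00000119508, chromosome 9, 99821855 to 99866891) had 30.9, 32.3 and 31.9 TPM in the shNT libraries and 17.03, 18.2 and 16.6 TPM in the shNR4A3 libraries. All 3 shNR4A3 libraries lay below all 3 shNT libraries, and the log2 fold change was -0.82 (standard error 0.0799, adjusted p = 0.000556). An exact two-sided permutation test of these TPM values gave p = 0.1, the smallest that 3 libraries against 3 allow. NR4A2 had 62.2, 74.7 and 51.2 TPM in shNT cells and 41.8, 60.8 and 38.3 TPM in shNR4A3 cells, where the groups overlapped, with a log2 fold change of -0.36 (adjusted p = 0.198, or 0.00132 with the replicate number as a block). NR4A1 had 22.1, 18.5 and 13.8 TPM and 17.6, 20.03 and 16.9 TPM, also overlapping, with a log2 fold change of 0.06 (adjusted p = 0.836). In bulk RNA, fewer cells expressing a gene and less RNA of that gene per cell cannot be told apart, here and for every gene that follows.

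At an adjusted p under 0.05, 622 genes (3.99% of those tested) were higher and 383 (2.46%) were lower in shNR4A3 cells, 6.45% in either direction. With a 2-fold limit added, 216 genes (1.39%) were higher and 134 (0.86%) lower, or 2.25% in either direction. The groups did not overlap in TPM in 349 of these 350 genes, while they did not overlap in 27.9% of all genes tested (10.4% higher and 17.5% lower). Of the 350 genes, 278 were protein coding and 51 were long noncoding RNAs. Long noncoding RNAs made up 43 of the 216 higher genes and 8 of the 134 lower genes (19.9% and 5.97%), where 10.6% of all genes tested were of this type. Most of the changed genes were of low or middling abundance, with a median of 6.94 TPM in the group with the higher mean, and 20 of them reached 100 TPM. Replicate 2 of the shNR4A3 line lay closer to the shNT libraries than the other two. Among the 216 higher genes it was the lowest shNR4A3 library in 124 (57.4%), and among the 134 lower genes it was the highest in 84 (62.7%). Without it, 530 genes were called at 2-fold and 1693 at any fold. Fewer were called without shNT replicate 2 (186 and 383), shNT replicate 3 (215 and 485), shNR4A3 replicate 1 (216 and 526), shNR4A3 replicate 3 (222 and 461) or shNT replicate 1 (295 and 670). Of the shNT libraries, replicate 1 was the highest in 110 of the 216 higher genes (50.9%). Replicate 3 was the lowest of them in 62 of the 134 lower genes (46.3%). The fit that blocked on the replicate number called 3401 genes (21.8%) at any fold, 1921 (12.3%) higher and 1480 (9.5%) lower. These shares, without and with the block, are the background for the counts of each gene list given below for this comparison. Of the 125 genes that the rule for named genes chose among those called at any fold, 63 kept their call under all 11 alternative settings and none reversed its direction. Single omissions cost 53 of them their call without shNT replicate 2, 49 without shNR4A3 replicate 3, 45 without shNT replicate 3, 41 without shNR4A3 replicate 1, 33 without shNT replicate 1 and 4 without shNR4A3 replicate 2.

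**Figure D1:**
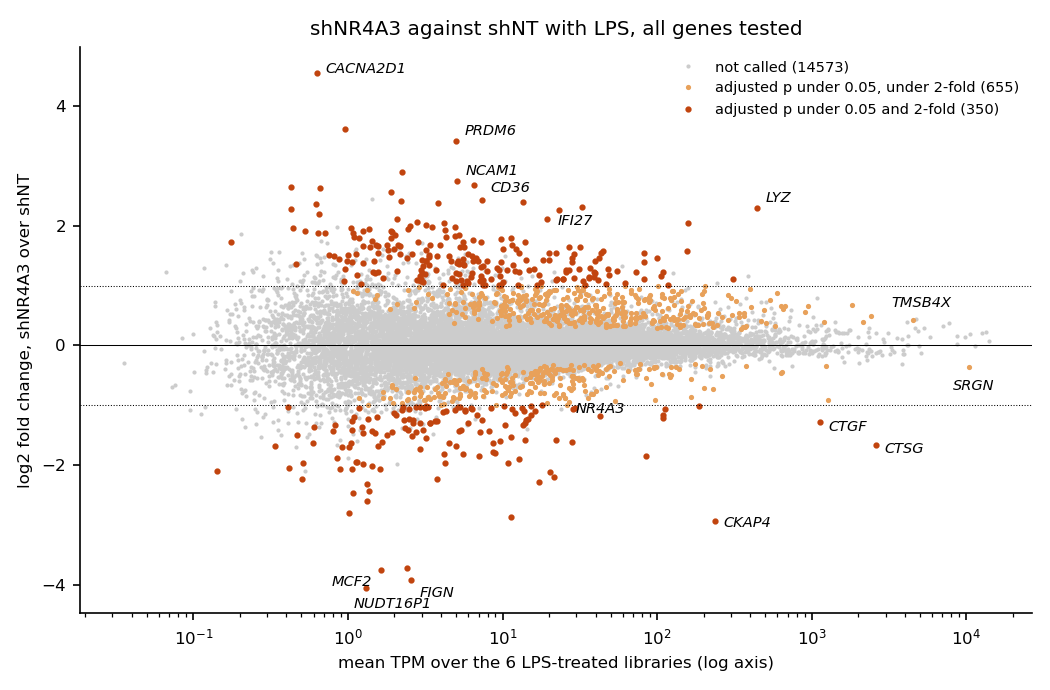
Log2 fold change of shNR4A3 over shNT with LPS (vertical axis) against the mean TPM over the 6 libraries (horizontal log axis), 1 point for each of the 15578 genes tested. The 350 genes past both limits lie beyond the dotted 2-fold lines, from CACNA2D1 at 4.55 to NUDT16P1 at -4.04, and NR4A3 itself lies at -0.82.

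The largest increases in fold were in genes of low level in shNT cells. CACNA2D1 (ENSG00000153956, chromosome 7, 81946444 to 82443798), an auxiliary α2δ subunit of voltage-gated calcium channels, had 0, 0.05999 and 0.0893 TPM in shNT cells and 0.902, 1.51 and 1.21 TPM in shNR4A3 cells, or 8 counts against 170 over the 3 libraries of each group (log2 fold change 4.55, standard error 0.502, adjusted p = 0.00106). PRDM6, a transcriptional repressor of the PR domain family, had 1.02, 0.906 and 0.7397 TPM and 8.26, 11.3 and 7.77 TPM (10.6-fold by edgeR, adjusted p = 1.36e-05). In both genes every shNR4A3 library was several times above every shNT library. Of 18 genes of calcium channel subunits, 11 were tested and CACNA2D1 was the only one called, with log2 fold changes between -0.39 and 0.96 for the other 10. With the replicate number as a block CACNA1E and CACNB4, pore and β subunits, were higher too. NCAM1 (CD56), a cell surface adhesion molecule of neural and natural killer cells, went from 1.44, 1.19 and 1.48 TPM to 6.46, 10.3 and 9.74 TPM (log2 fold change 2.74, adjusted p = 5.31e-05). The long noncoding RNA LINC00461 had 0.0847, 0.0584 and 0.287 TPM in shNT cells and 1.89, 2.02 and 1.44 TPM in shNR4A3 cells (log2 fold change 3.61, adjusted p = 0.00169), and its groups lay far apart. VCAN, which encodes the matrix proteoglycan versican, rose from 4.91, 4.76 and 3.72 TPM to 21.6, 22.9 and 22.9 TPM (log2 fold change 2.39, adjusted p = 5.31e-06). The scavenger receptor gene CD36 rose from 2.96, 2.37 and 1.86 TPM to 15.1, 9.86 and 11.9 TPM (log2 fold change 2.43, adjusted p = 0.000323). The shNR4A3 libraries of VCAN differed little from each other, and replicate 2 was the lowest for CD36.

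The calls of 3 others among the 12 most increased genes with a mean of at least 1 TPM in 1 of the groups depended on single libraries. CALCRL, the receptor subunit for calcitonin gene-related peptide and adrenomedullin, had 0.539, 0.587 and 0.5498 TPM in shNT cells and 5.68, 0.834 and 5.21 TPM in shNR4A3 cells, where replicate 2 stayed close to the shNT level (log2 fold change 2.90, adjusted p = 0.0216). CASP5, an inflammatory caspase that senses cytosolic LPS, also had replicate 2 as the lowest shNR4A3 library, with 0.328, 0.566 and 0.808 TPM and 5.11, 1.12 and 3.47 TPM (log2 fold change 2.57, adjusted p = 0.034). CLEC10A, a C-type lectin receptor of macrophages and dendritic cells, had 8 counts in all against 45 (log2 fold change 2.63, adjusted p = 0.0351). The calls of these 3 genes were lost when single libraries were left out, with adjusted p of up to 0.0813, 0.124 and 0.139. The transcribed pseudogene ABCC13 (log2 fold change 2.41) and the noncoding RNAs AL390760.1 (2.67) and AC083837.1 (2.37) completed the 12.

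Among the 12 genes that fell most in fold, of those with a mean of at least 1 TPM in 1 of the groups, CKAP4 was the most abundant. CKAP4 (ENSG00000136026, chromosome 12, 106237877 to 106304279), an endoplasmic reticulum membrane protein that links to microtubules, fell from 393, 466 and 408 TPM to 48.1, 64.7 and 48.3 TPM. This was a 7.59-fold difference by edgeR (log2 fold change -2.92, standard error 0.109, adjusted p = 2.59e-06). FIGN, a microtubule-severing ATPase, fell from 4.504, 5.51 and 4.401 TPM to 0.149, 0.336 and 0.421 TPM (log2 fold change -3.91, adjusted p = 5.31e-05). MCF2, a guanine nucleotide exchange factor for small GTPases, fell from 1.92, 4.18 and 3.09 TPM to 0.148, 0.268 and 0.235 TPM (log2 fold change -3.74, adjusted p = 0.000744). In each of these 3 genes the groups were apart by a wide margin. The pseudogene NUDT16P1 had 101 counts in shNT cells and 5 in shNR4A3 cells over 3 libraries each (log2 fold change -4.04, adjusted p = 0.000652). TMEM176B, a membrane protein of myeloid and dendritic cells, had 6.96, 3.19 and 3.33 TPM and 0.187, 0.338 and 0.423 TPM (log2 fold change -3.71, adjusted p = 0.00296). BEX1, an X-linked gene of the brain-expressed family, had 16.3, 21.1 and 22.9 TPM and 2.57, 3.35 and 2.13 TPM (log2 fold change -2.86, adjusted p = 0.000386). Replicate 1 of the shNT line was high for TMEM176B and low for BEX1, and both genes were apart between the groups all the same. IGSF10 (-2.80), FGFBP2 (-2.60), TCEA3 (-2.47), ADGRG3 (-2.43), AL355974.2 (-2.32) and PCDH7 (-2.28, log2 fold changes) made up the rest of the 12 most decreased. HUNK, a serine/threonine kinase of the AMPK family, had 1.702, 2.13 and 1.396 TPM and 0.423, 0.322 and 0.424 TPM (log2 fold change -2.07, adjusted p = 0.00169). POU4F2, a neural transcription factor, did not pass the filter, with 21 counts against 13. The calls of FGFBP2, TCEA3 and AL355974.2 were lost when single libraries were left out (adjusted p of up to 0.0564, 0.0691 and 0.127).

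**Figure D2:**
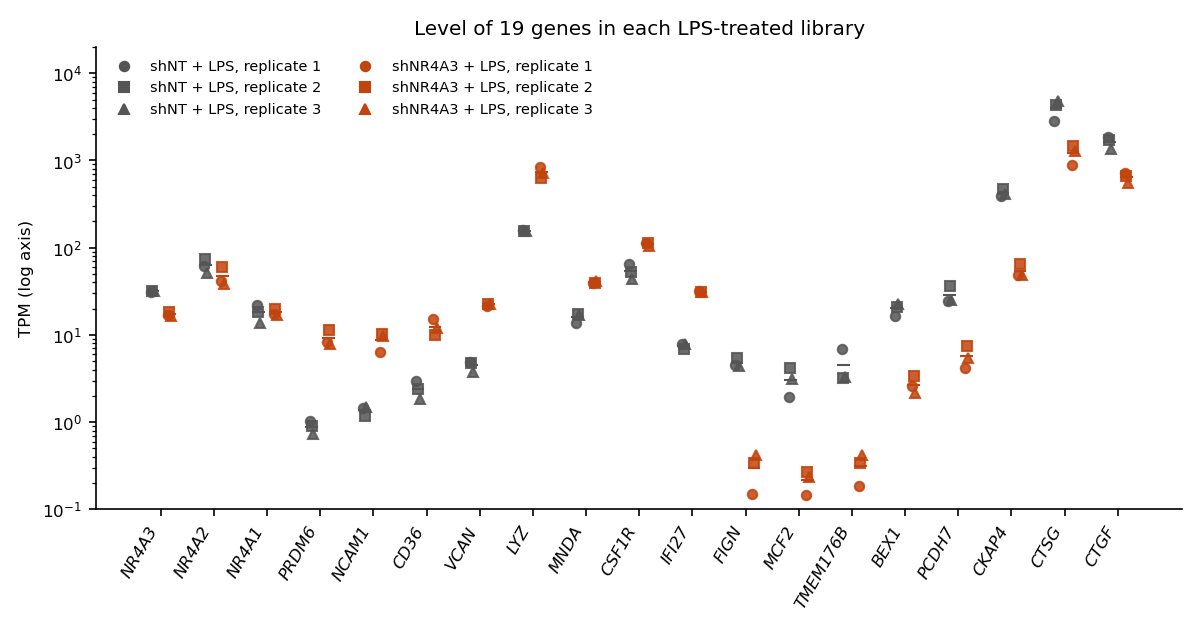
TPM (vertical log axis) of 19 genes in each of the 3 shNT and 3 shNR4A3 libraries with LPS, with a marker shape for each replicate number and a line at each group's mean. The groups overlap in NR4A1 and NR4A2 and are apart in the other 17 genes, for example 393, 466 and 408 against 48.1, 64.7 and 48.3 TPM for CKAP4.

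Most interferon-stimulated genes rose. Of 30 antiviral genes of this kind, all tested, 20 were higher and none lower at an adjusted p under 0.05, where 3.99% of all genes were higher, and 9 of them passed the 2-fold limit. Their median log2 fold change was 0.72 against -0.01 over all genes tested, and all 30 estimates were above 0. The summed TPM of the list was 1637, 1717 and 1958 in shNT cells and 2245, 2314 and 2619 in shNR4A3 cells, without overlap, with IFI6 as the most abundant member. IFI27, a mitochondrial interferon-induced protein, had the largest change, from 7.90, 6.87 and 7.87 TPM to 31.6, 31.3 and 31.3 TPM (log2 fold change 2.11, standard error 0.111, adjusted p = 1.42e-05). IFIT3, of the family that binds foreign RNA, rose from 33.9, 32.01 and 35.2 TPM to 86.6, 61.2 and 80.9 TPM (log2 fold change 1.24, adjusted p = 0.00174), and IFIT2 rose by 1.27 (adjusted p = 0.00408). The 3 shNR4A3 libraries of IFI27 were nearly equal, while replicate 2 was the lowest of the 3 for IFIT3. ISG15, a ubiquitin-like modifier, rose from 90.3, 101 and 116 TPM to 177, 151 and 222 TPM (log2 fold change 0.90, adjusted p = 0.0111). OAS1, which makes the second messenger that activates RNase L, rose from 15.5, 15.6 and 16.5 TPM to 29.1, 24.2 and 32.9 TPM (log2 fold change 0.92, adjusted p = 0.00411). Higher too were IFI44 (1.23), IFI44L (1.09), OASL (1.09), TRIM22 (1.09), EPSTI1 (1.08), IFIT1 (1.06), OAS2 (0.84), CMPK2 (0.77), MX2 (0.67), XAF1 (0.67), OAS3 (0.60), SAMD9 (0.58), SAMD9L (0.54), IFI35 (0.50) and MX1 (0.46, log2 fold changes). The 10 members not called had log2 fold changes from 0.11 for IFITM1 to 1.08 for IFIT5 (adjusted p = 0.0836), and with the replicate number as a block 26 of the 30 were higher, IFIT5, IFI6, IFITM3, ISG20, USP18 and BST2 in addition. With each library left out in turn, 13 to 22 of the 30 genes were called, the fewest without shNT replicate 2. Calls that a single omission took away were those of ISG15, which needed shNT replicate 2 (adjusted p = 0.0552 without it), OASL, IFIT1, SAMD9, SAMD9L, IFI35 and MX1 (up to 0.135, SAMD9). With all 18 samples in 1 fit 16 of the 30 were called, and OAS3 lost its call there (adjusted p = 0.121) and kept it under every single omission.

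**Figure D3:**
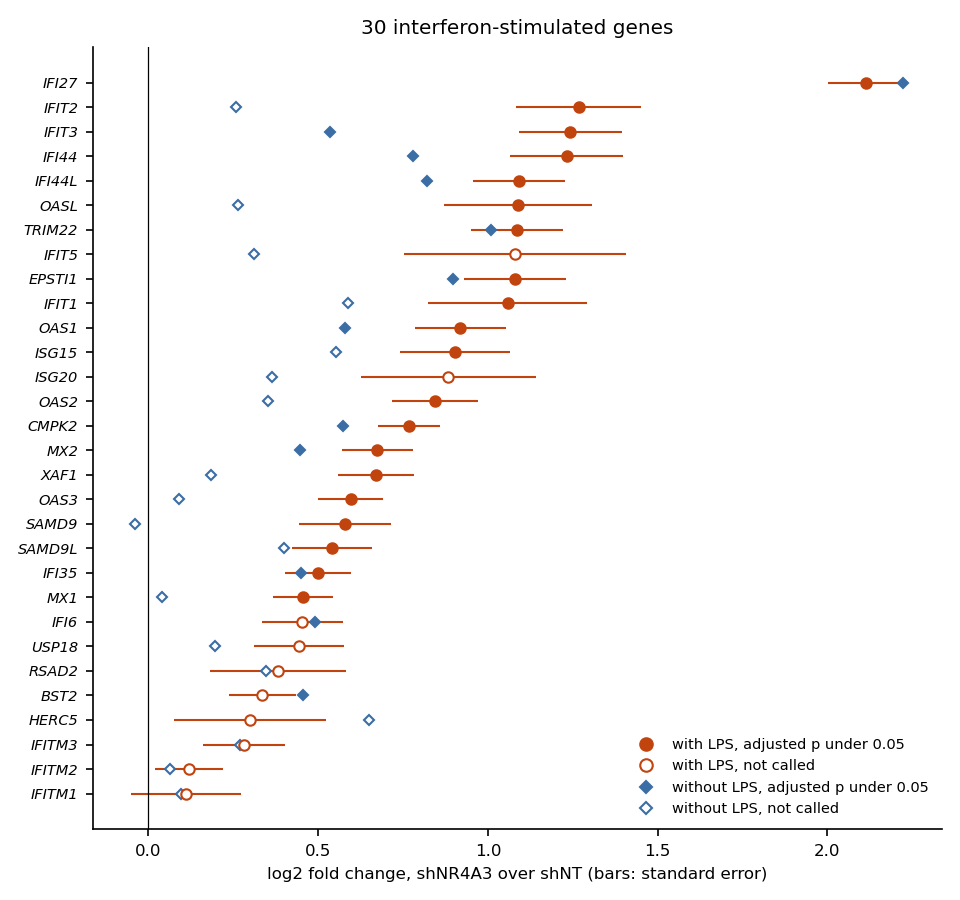
Log2 fold change of shNR4A3 over shNT (horizontal axis, bars give the standard error) for 30 interferon-stimulated genes with LPS (circles) and, from separate libraries, without LPS (diamonds), filled where the adjusted p is under 0.05. With LPS 20 circles are filled and all 30 lie above 0, from IFITM1 at 0.11 to IFI27 at 2.11, and 12 diamonds are filled.

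The promoters of these genes are known for the interferon-stimulated response element, bound by factors that interferon activates. Its letters, GAAA, any 2 bases and GAAA again, or TTTC, any 2 bases and TTTC on the other strand, were searched in the 250 bases before the first listed RefSeq start site of each gene (GRCh38.p14), on both strands and counting matches that share bases. They were present in 839 of 27305 promoters (3.07%) and in 278 of 11187 promoters of genes tested here (2.49%). Of the 216 genes called higher at 2-fold, 132 had a promoter in the table and 14 of these (10.6%) held the letters, against 1 of 93 (1.08%) for the genes called lower. Outside the list of interferon-stimulated genes, 8 of 126 promoters of higher genes (6.35%) held them. Within the list, 9 of 15 promoters (60%) of genes called and 7 of 8 (87.5%) of genes not called without the replicate block held them. The 130 bases before the start site are given, 5′ to 3′ along the strand of the gene, for 5 genes that rose and for IFITM3, which was not called without the replicate block (log2 fold change 0.28, adjusted p = 0.203, or 0.00682 with the block), to show how number and place of the matches, in capitals, vary.
IFI27 (chr14:94110606-94110735, plus strand): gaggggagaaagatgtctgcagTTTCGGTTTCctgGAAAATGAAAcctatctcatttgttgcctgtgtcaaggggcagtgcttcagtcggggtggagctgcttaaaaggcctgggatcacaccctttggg
IFIT1 (chr10:89392493-89392622, plus strand): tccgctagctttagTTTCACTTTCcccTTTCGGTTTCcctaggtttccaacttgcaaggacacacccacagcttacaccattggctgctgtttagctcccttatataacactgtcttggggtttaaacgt
IFI44 (chr1:78649659-78649788, plus strand): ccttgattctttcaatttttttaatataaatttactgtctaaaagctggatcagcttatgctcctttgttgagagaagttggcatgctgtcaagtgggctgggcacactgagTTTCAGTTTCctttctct
ISG15 (chr1:1013367-1013496, plus strand): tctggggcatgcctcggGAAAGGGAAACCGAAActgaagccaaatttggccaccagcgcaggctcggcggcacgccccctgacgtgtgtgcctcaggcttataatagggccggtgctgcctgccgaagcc
EPSTI1 (chr13:42992242-42992371, minus strand): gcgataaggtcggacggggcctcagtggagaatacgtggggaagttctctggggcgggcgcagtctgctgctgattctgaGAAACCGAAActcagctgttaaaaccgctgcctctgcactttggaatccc
IFITM3 (chr11:320861-320990, minus strand): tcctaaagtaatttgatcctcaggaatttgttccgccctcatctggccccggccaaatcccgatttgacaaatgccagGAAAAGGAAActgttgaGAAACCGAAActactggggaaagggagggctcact
IFI27, IFIT1, ISG15 and IFITM3 held 2 matches each in this window, those of ISG15 sharing bases, and IFI44 and EPSTI1 held 1. The NBRE, the element bound by NR4A monomers (AAAGGTCA, or TGACCTTT on the other strand), was searched from 250 bases before to 50 bases after the start site and was found in 330 of 27305 promoters (1.21%). It was in 87 of 11187 promoters of genes tested here (0.778%), in 1 of 132 of genes called higher at 2-fold (0.758%) and in 0 of 93 of genes called lower. These are matches of letters only, and binding was not measured. Further upstream than the stretch searched here, the paper reports an exact NBRE for CACNA2D1. Partial elements, which the paper reports for HUNK and NCAM1 among others, were not counted here.

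Sensors, receptors and factors of the interferon pathway rose in part. Of 25 such genes, 24 were tested and 8 were higher, none lower (median log2 fold change 0.37), and with the replicate number as a block 14 were higher and 1 was lower. IRF7, a factor that amplifies interferon production, had 57.2, 53.4 and 64.6 TPM in shNT cells and 96.5, 81.02 and 98.4 TPM in shNR4A3 cells (log2 fold change 0.72, adjusted p = 0.0112). IRF8, a factor of monocyte and dendritic cell development, rose from 231, 252 and 194 TPM to 347, 413 and 364 TPM (log2 fold change 0.79, adjusted p = 0.00119). The groups of both genes were apart. TLR8 (1.21), IFNGR2 (0.64), IRF9 (0.61), IRF1 (0.53) and IFNAR2 (0.45, log2 fold changes) were higher too. Interferon beta itself (IFNB1) was low, with 2.03, 3.98 and 2.81 TPM and 3.44, 4.41 and 2.34 TPM in overlapping groups (log2 fold change 0.25, adjusted p = 0.736). With single libraries left out, 3 to 13 genes of the list were called, 3 without shNR4A3 replicate 1 or 3 or shNT replicate 2, 5 without shNT replicate 3 and 13 without shNR4A3 replicate 2. Among the called genes, IRF7 was lost without shNT replicate 2 (adjusted p = 0.0572), and TLR8, IFNGR2, IRF9 and IFNAR2 without several of the libraries (up to 0.172, IRF9).

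Of the genes of antigen presentation, edgeR with its filter, all 6 libraries and no block called none of class I and 5 of class II. By DESeq2, with all 18 samples in 1 fit, with no filter on low counts or without shNR4A3 replicate 2, 1 class I gene was called. The 16 class I genes, which present peptides from inside the cell, were all tested, with log2 fold changes from -0.21 to 0.39 (lowest adjusted p = 0.0666, TAPBP), and 3 were higher with the replicate number as a block. Of 16 class II genes, which present peptides taken up from outside, 13 were tested and 5 were higher, none lower. CD74, the invariant chain that guides class II molecules, rose from 104, 115 and 108 TPM to 193, 164 and 167 TPM (log2 fold change 0.74, adjusted p = 0.003). HLA-DRA, the α chain of HLA-DR, rose from 24.8, 29.98 and 23.5 TPM to 46.5, 41.6 and 37.8 TPM (log2 fold change 0.75, adjusted p = 0.0123). HLA-DPA1 was low, with 62 counts in all against 173 (log2 fold change 1.67, adjusted p = 0.00438). HLA-DRB1 (0.50) and HLA-DRB5 (0.54, log2 fold changes) are near-identical copies whose reads may be exchanged, so their separate values are uncertain. As few as 2 of the class II genes were called when shNT replicate 3 was left out, and 3 without shNR4A3 replicate 1 or 3 or shNT replicate 2. HLA-DRA lost its call without shNT replicate 3 (adjusted p = 0.0526), and HLA-DRB1 and HLA-DRB5 theirs without any one of 4 libraries.

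Markers that define the cells were examined next. Both lines expressed monocytic and immature myeloid genes, and of the defining markers of other cell types CD2, MS4A1, HBA1, HBG1 and STMN2 had no count in any of the 6 libraries. The summed TPM of 6 endothelial markers was 69.4, 61.8 and 66.8 in shNT cells and 68.3, 77.9 and 76.0 in shNR4A3 cells, mostly EGFL7. That of 12 T and NK cell markers was 51.9, 48.4 and 58.8 and 41.7, 52.2 and 51.6, mostly NKG7, with overlapping groups for both lists. The 8 B cell markers summed to between 13.8 and 16.6 TPM in the 6 libraries with FCER2 as the most abundant. The 9 erythroid and platelet markers summed to 9.37, 9.73 and 9.39 TPM and 5.04, 4.82 and 8.04 TPM, with GP9 as the most abundant and the groups apart. The epithelial, fibroblast and neuronal lists each summed to under 3 TPM in every library. Of 16 monocyte markers 6 were higher and none lower (median log2 fold change 0.41), and their summed TPM went from 3908, 3407 and 3269 in shNT cells to 5233, 4535 and 4778 in shNR4A3 cells. LYZ (lysozyme, ENSG00000090382, chromosome 12, 69348341 to 69354234) rose from 159, 156 and 156 TPM to 844, 634 and 719 TPM, 4.89-fold by edgeR (log2 fold change 2.29, standard error 0.129, adjusted p = 2.03e-05). MNDA, a nuclear antigen of myeloid differentiation, rose from 13.8, 17.3 and 16.7 TPM to 39.7, 38.9 and 41.7 TPM (log2 fold change 1.39, adjusted p = 0.000323). CSF1R, the receptor for macrophage colony-stimulating factor, rose from 64.6, 53.3 and 43.8 TPM to 115, 113 and 106 TPM (log2 fold change 1.10, adjusted p = 0.00121). In these 3 genes every shNR4A3 library was above every shNT library, and LYZ was almost constant within the shNT group. SPI1, the factor PU.1 that drives myeloid genes, rose by 0.55 (adjusted p = 0.0297), ITGAM (CD11b) by 0.82 (adjusted p = 0.0225) and ITGB2 (CD18) by 0.75 (adjusted p = 0.00119, log2 fold changes). CD14, the LPS co-receptor, had 21.7, 11.8 and 11.6 TPM and 38.4, 16.9 and 25.8 TPM with overlapping groups (log2 fold change 0.93, adjusted p = 0.13, or 0.000193 with the block). With the block 9 monocyte markers were higher and 2 lower. Whether the level of these markers has a part in the other differences between the lines was not tested. SPI1 and ITGAM lost their calls without shNR4A3 replicate 1 or 3 or shNT replicate 2 or 3 (adjusted p of up to 0.122 and 0.0959).

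The granule genes of immature myeloid cells did not move together. Of 10, none was higher and 2 were lower, and with the block 2 were higher and 3 lower. CTSG, the serine protease cathepsin G, fell from 2869, 4366 and 4804 TPM to 898, 1479 and 1301 TPM (log2 fold change -1.66, standard error 0.201, adjusted p = 0.00169), and replicate 1 was the lowest in both groups. SRGN, the proteoglycan serglycin that packs granules, fell from 11738, 12793 and 11399 TPM to 9414, 9071 and 8394 TPM (log2 fold change -0.36, adjusted p = 0.0323). ELANE, the gene of neutrophil elastase, had 3899, 4228 and 4392 TPM and 3434, 4497 and 4213 TPM (log2 fold change 0.01, adjusted p = 0.964), and AZU1 was at -0.09 and PRTN3 at -0.29 (adjusted p = 0.57 and 0.278). Of 14 genes that mark macrophage differentiation, 10 were tested, and 5 were higher and 1 lower with the block. CD36 and MSR1 (37 counts against 83, log2 fold change 1.35), both scavenger receptors, were higher, and APOE, an apolipoprotein made by macrophages, was lower, from 31.6, 16.3 and 19.8 TPM to 12.7, 7.62 and 9.86 TPM (log2 fold change -1.09, adjusted p = 0.0466). Among lymphocyte markers, CD5 rose from 1.95, 1.79 and 1.35 TPM to 7.06, 5.32 and 7.59 TPM (log2 fold change 2.04, adjusted p = 0.00119), and PAX5, the B cell factor, fell from 3.47, 6.06 and 4.102 TPM to 0.851, 1.74 and 1.36 TPM (log2 fold change -1.74, adjusted p = 0.00411). TRAC was lower (-1.30) and FCER2 (CD23) higher (1.21, log2 fold changes), so these 2 lists of lymphocyte markers held calls in both directions. None of the erythroid, epithelial, fibroblast, endothelial and neuronal markers tested was called by edgeR with all 6 libraries and no block, 12 of 36 having passed the filter. With the block 1 endothelial marker was higher and 1 erythroid or platelet marker lower. With no filter on low counts 1 endothelial, 1 fibroblast and 1 erythroid or platelet marker were called. Without shNR4A3 replicate 2, 1 fibroblast marker was called. SRGN, MSR1, APOE, TRAC and FCER2 lost their calls when single libraries were left out (adjusted p of up to 0.162, TRAC).

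Most genes of the inflammatory response to LPS were not called between the lines by the test without a block. TNF, an early cytokine of the response, had 2221, 2168 and 1964 TPM in shNT cells and 1964, 1712 and 1929 TPM in shNR4A3 cells (log2 fold change -0.12, adjusted p = 0.507), so that the lowest shNT library only just exceeded the highest shNR4A3 library. The chemokine gene CXCL8 had 5932, 5139 and 4170.1 TPM and 6281, 4012 and 4115 TPM (log2 fold change -0.01, adjusted p = 0.98), with groups that overlapped. NFKBIA, the inhibitor IκBα that NF-κB itself induces, had 1909, 1783 and 1644 TPM and 1818, 1636 and 1674 TPM (log2 fold change 0.00, adjusted p = 0.982). A p above the limit does not show that the levels were equal. Of 19 pro-inflammatory cytokines 16 were tested, 2 were higher and 1 was lower. IL6 rose from 3.62, 1.31 and 2.25 TPM to 12.5, 4.95 and 6.96 TPM (log2 fold change 1.83, standard error 0.429, adjusted p = 0.0343). TNFSF15 (TL1A) rose from 3.71, 2.54 and 2.81 TPM to 11.4, 4.404 and 6.35 TPM (log2 fold change 1.36, adjusted p = 0.0393). For both genes replicate 1 of the shNR4A3 line was the highest and replicate 2 the lowest and nearest to the shNT libraries, and both calls were lost with single libraries left out (adjusted p of up to 0.116 and 0.141). LIF, a cytokine of the IL-6 family, went the other way, from 22.5, 21.97 and 14.6 TPM to 8.29, 8.698 and 5.74 TPM (log2 fold change -1.32, standard error 0.193, adjusted p = 0.00411), with all shNR4A3 libraries well below. IL1B had 4934, 3686 and 3715 TPM and 6508, 4415 and 5054 TPM (log2 fold change 0.44, adjusted p = 0.168, or 0.000422 with the block). With the block, 7 cytokines were higher and 2 lower. Of all cytokines tested, 8 were called without shNR4A3 replicate 2, 2 without shNT replicate 1 and 1 without any one of the other 4 libraries.

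**Figure D4:**
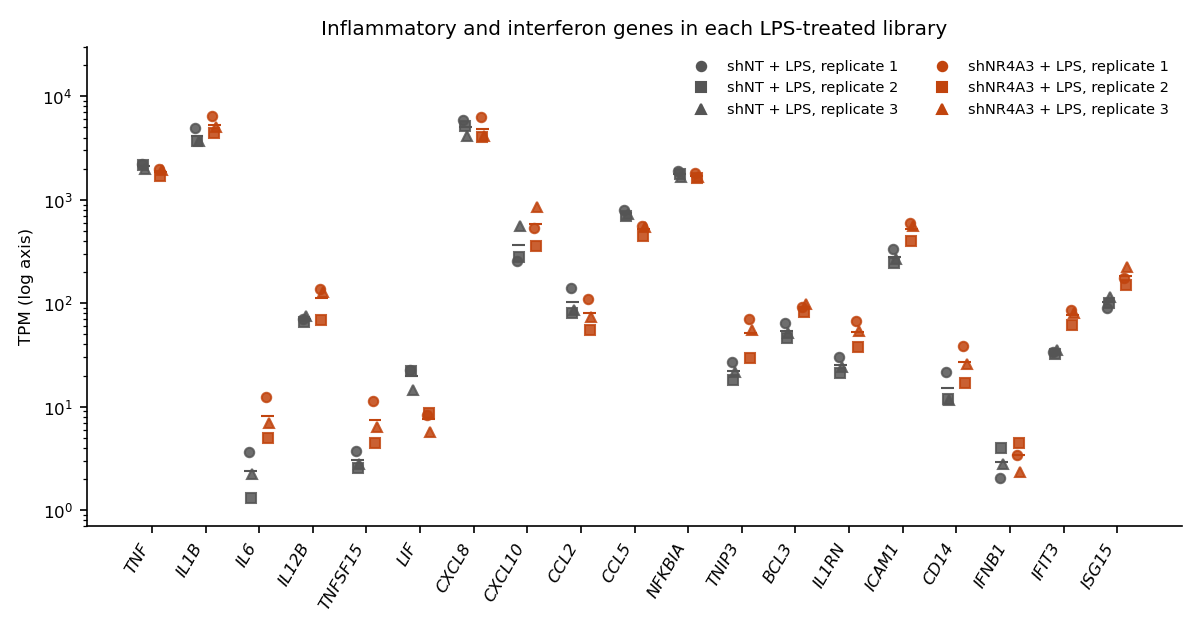
TPM (vertical log axis) of 19 inflammatory and interferon genes in each of the 3 shNT and 3 shNR4A3 libraries with LPS, with a marker shape for each replicate number and a line at each group's mean. CXCL8, CCL2, NFKBIA and IFNB1 overlap between the groups, TNF barely does not, IL6, TNIP3, ICAM1 and IFIT3 are higher and LIF and CCL5 lower in shNR4A3 cells, and squares (replicate 2) are the lowest shNR4A3 point of many LPS-induced genes, for example 70.4, 29.7 and 54.5 TPM for TNIP3.

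Of 23 chemokines 19 were tested, none was higher and 2 were lower (with the block 6 higher and 3 lower). CCL5 (RANTES) fell from 800.1, 704 and 729 TPM to 556, 449 and 544 TPM (log2 fold change -0.46, adjusted p = 0.0464). CCL23 fell from 32.4, 35.2 and 31.4 TPM to 13.5, 20.8 and 17.7 TPM (log2 fold change -0.88, adjusted p = 0.0162). The groups of both were apart. CCL2 (MCP-1), which attracts monocytes, had 141, 80.1 and 85.8 TPM and 111, 55.6 and 73.7 TPM (log2 fold change -0.28, adjusted p = 0.596, or 0.0112 with the block), with replicate 1 the highest in both groups. Neither CCL5 nor CCL23 was among the genes called without shNT replicate 2 or 3 or shNR4A3 replicate 3, where no gene of the list was called, and 7 were called without shNR4A3 replicate 2. CCL5 lost its call with RLE scaling too (adjusted p = 0.0503).

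The 25 genes of NF-κB and of TLR feedback all had log2 fold changes above 0 (median 0.40), although RELA (0.05) and NFKBIA (0.00) were lower in mean TPM in shNR4A3 cells. At an adjusted p under 0.05, 6 of the 25 were higher, and 17 with the block. BCL3, an IκB family member that acts in the nucleus, rose from 64.98, 46.2 and 51.1 TPM to 91.5, 82.4 and 99.2 TPM (log2 fold change 0.81, adjusted p = 0.0105). TNIP3, an inhibitor of NF-κB signalling, rose from 26.8, 17.98 and 21.8 TPM to 70.4, 29.7 and 54.5 TPM (log2 fold change 1.29, adjusted p = 0.03). IL1RN, the interleukin 1 receptor antagonist, rose from 30.1, 21.3 and 24.3 TPM to 67.6, 37.4 and 54.05 TPM (log2 fold change 1.14, adjusted p = 0.0169). For TNIP3 and IL1RN replicate 2 was the lowest shNR4A3 library and lay closest to the shNT libraries. NFKBIE (0.48) and the phosphatase genes DUSP5 (0.77) and DUSP2 (0.65, log2 fold changes) were the other 3. Between 2 (without shNR4A3 replicate 3) and 10 (without shNR4A3 replicate 2) genes of the list were called with a library left out, and 3 without any of the other 4. Of the LPS receptors and adaptors 14 were tested and TLR2 alone was higher (log2 fold change 0.54, adjusted p = 0.0109), with 7 higher under the block. TLR4 was at 39.1, 36.1 and 26.4 TPM and 33.2, 31.9 and 20.6 TPM (log2 fold change -0.18, adjusted p = 0.6). Of 17 immediate early factors JUNB (0.41) and EGR2 (0.40, log2 fold changes) were higher, and 9 were higher and 2 lower under the block. None of these was called without shNR4A3 replicate 1 or 3 or shNT replicate 1 or 3, and 4 were called without shNR4A3 replicate 2. Of the LPS receptors 5 were called without shNR4A3 replicate 2 and none without shNR4A3 replicate 3 or shNT replicate 2. TNIP3, IL1RN, NFKBIE, DUSP2, TLR2, JUNB and EGR2 each lost the call with some library left out (adjusted p of up to 0.128, DUSP2).

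Genes of adhesion were called in both directions. Of 19 integrin genes 16 were tested, 8 were higher and 1 lower (median log2 fold change 0.55), and with the block 11 were higher and 2 lower. ITGAL (CD11a), a leukocyte integrin α chain, rose from 24.9, 29.6 and 19.6 TPM to 37.1, 70.7 and 56.7 TPM (log2 fold change 1.20, adjusted p = 0.00625). Its partner ITGB2, the β2 chain shared by the leukocyte integrins, rose from 430.4, 418 and 378 TPM to 690.0, 643 and 649 TPM (log2 fold change 0.75, adjusted p = 0.00119). ITGB7 rose by 0.98, ITGA7 by 0.81, ITGA4 by 0.68, ITGB1 by 0.34 and ITGB8, at under 1 TPM, by 1.96 (log2 fold changes). ITGB5, a partner of the αv chain, fell from 32.2, 31.5 and 27.5 TPM to 13.3, 18.9 and 15.7 TPM (log2 fold change -0.87, adjusted p = 0.0019). Between 5 (without shNT replicate 3) and 10 (without shNR4A3 replicate 2) integrins were called with a library left out. In the immunoglobulin family, 18 of 23 genes were tested, and NCAM1, ICAM1 and ICAM5 were higher and F11R lower. ICAM1, the ligand of the β2 integrins, rose from 334, 244 and 268 TPM to 597, 403 and 561 TPM (log2 fold change 0.95, adjusted p = 0.0138). ICAM1 was apart between the groups, and replicate 2 was the lowest of the shNR4A3 libraries. With the block 6 genes of the immunoglobulin family were higher and 3 lower. Of the immunoglobulin family 1 gene was called without shNR4A3 replicate 3 or shNT replicate 2, and 2 without shNT replicate 3. ITGA4 lost its call without shNT replicate 1 or 3 (adjusted p of up to 0.0998), and ITGB1, ITGB8, ICAM1, ICAM5 and F11R lost theirs without shNR4A3 replicate 3 and other single libraries (up to 0.114, ITGB8).

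Of 23 cadherins, which join cells through calcium-dependent contacts, 13 were tested, 1 was higher and 4 were lower, and with the block 3 were higher and 5 lower. PCDH7, a protocadherin, fell from 24.5, 36.2 and 25.2 TPM to 4.13, 7.55 and 5.39 TPM (log2 fold change -2.28, adjusted p = 0.000249). DSG2, a desmosomal cadherin, fell from 52.5, 70.1 and 56.4 TPM to 19.8, 33.6 and 22.8 TPM (log2 fold change -1.18, adjusted p = 0.00295). DSC2 (-0.75), its desmosomal partner, and DCHS1 (-0.88) were lower and CDH23 (0.86, log2 fold changes) was higher. CD44, the hyaluronan receptor, rose from 84.7, 70.3 and 81.1 TPM to 159, 99.1 and 151 TPM (log2 fold change 0.86, adjusted p = 0.0239), and CD34, at a low level, had 37 counts against 122. Among 21 matrix genes tested VCAN was higher and CTGF lower, where 3.99% of all genes tested were higher and 2.46% lower. With the block 8 were higher and 2 lower, where 12.3% of all genes tested were higher and 9.5% lower. CTGF (CCN2), a matricellular protein, fell from 1841, 1720.0 and 1341 TPM to 724, 656 and 547 TPM (log2 fold change -1.28, standard error 0.135, adjusted p = 0.000849). Every shNR4A3 library of CTGF lay below every shNT library. TIMP3, an inhibitor of metalloproteinases, fell from 1872, 1846 and 1302 TPM to 700.1, 1134 and 737 TPM (log2 fold change -0.91, adjusted p = 0.0126), and the sheddase gene ADAM9 rose by 0.59. FLT1, a receptor for VEGF, rose from 0.958, 0.718 and 1.05 TPM to 4.06, 1.74 and 3.55 TPM (log2 fold change 1.85, adjusted p = 0.00986), its co-receptor NRP1 rose by 0.84 and ANGPTL6 fell by 1.45 on the log2 scale. DCHS1, CD44, CD34, TIMP3 and NRP1 lost their calls when single libraries were left out, shNT replicate 2 among them (adjusted p of up to 0.102, CD44).

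**Figure D5:**
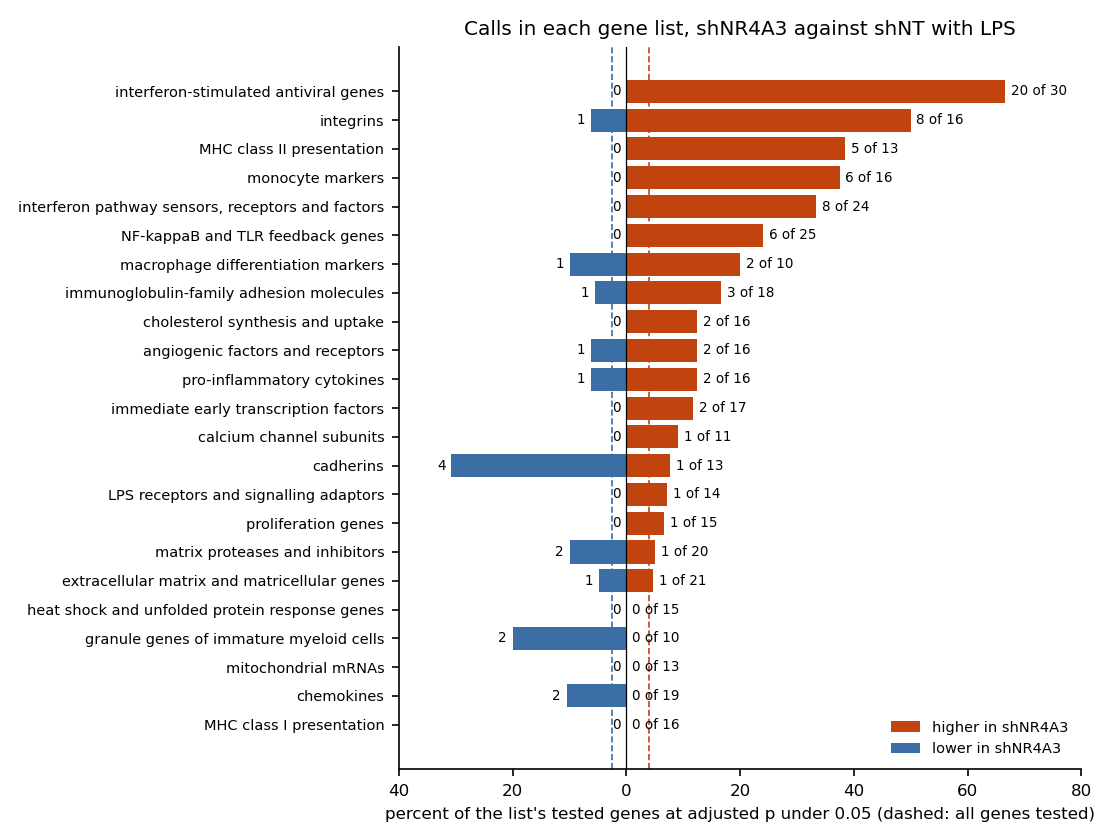
Percent of the tested genes of each list with at least 10 tested that were higher (right) or lower (left) in shNR4A3 cells at an adjusted p under 0.05, with counts beside the bars and dashed lines at the 3.99% higher and 2.46% lower of all genes tested. All counts are from edgeR with its filter, all 6 libraries and no block. The interferon-stimulated list stands at 20 of 30 higher and the cadherins at 4 of 13 lower, and no class I gene was called by this fit.

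Ranked by the difference in mean TPM, the changes among abundant genes were mostly small in fold. TMSB4X, the actin-binding peptide thymosin β4, rose from 3987, 4062 and 3732 TPM to 5302, 4801 and 5066 TPM (log2 fold change 0.43, adjusted p = 0.0182). BTG2, an antiproliferative regulator of mRNA decay, rose from 1338, 1478 and 1524 TPM to 2276, 2134 and 2198 TPM (log2 fold change 0.67, adjusted p = 0.00302). The lysosomal protein genes PSAP and GRN rose by 0.65 and 0.88, and CD83, a surface protein of activated antigen-presenting cells, by 0.67 (adjusted p = 0.0139, 0.00414 and 0.0104). GPX1 (log2 fold change 0.40) and its processed pseudogene GPX1P1 (0.38) share near-identical sequence and are uncertain as separate genes, and the mitochondrial tRNA gene MT-TL1 (0.49) is not polyadenylated as a gene of its own. Besides SRGN, CTSG, CTGF, TIMP3, CKAP4 and CCL5, the largest falls in TPM were in PPIF, the mitochondrial cyclophilin D (-0.34), BARX1, a homeobox factor (-0.44), PPP1R27 (-1.005) and HOMER3, a scaffold protein (-0.73, log2 fold changes). HOMER3 had 297, 316 and 257 TPM in shNT cells and 159, 199.5 and 145 TPM in shNR4A3 cells, and PPP1R27 had 232, 303 and 226 and 104, 147 and 114 TPM. Both genes were apart between the groups. TMSB4X, PSAP, CD83, GPX1, GPX1P1, MT-TL1, PPIF and BARX1 lost their calls when single libraries were left out, MT-TL1 with an adjusted p of up to 0.146.

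The same lines without LPS were compared as the most similar experiment, in separate libraries. Of the 350 genes called at 2-fold with LPS, 280 could be tested without LPS and 208 of these (74.29%) were called there in the same direction at an adjusted p under 0.05 at any fold, none in the opposite one, where 7.23% of all genes were called (3.91% higher and 3.32% lower). Nearly all of the lower genes could be tested without LPS, 132 of 134, and 110 of these were called. Of the higher genes, 148 of 216 could be tested and 98 were called. PRDM6 (3.13), CACNA2D1 (3.94), LYZ (2.25), IFI27 (2.22), CKAP4 (-3.22) and FIGN (-4.01, log2 fold changes without LPS) were called without LPS too. IL6, CALCRL, CASP5, TNIP3 and FLT1 did not pass the filter on low counts without LPS. Of the 30 interferon-stimulated genes 12 were called without LPS, all higher, with a median log2 fold change of 0.42 where it was 0.72 with LPS. Whether the knockdown effect differed with LPS was tested by the interaction of line and LPS over all 12 libraries. By edgeR without a block none of 16428 genes passed an adjusted p of 0.05 (824 had an unadjusted p under 0.05), the lowest adjusted p among the interferon-stimulated genes being 0.764. DESeq2 called 11 genes, and edgeR called 44 when replicate 2 of shNR4A3 with LPS was left out. In data simulated for this interaction, 14.5% of the calls by DESeq2 and 7.11% of those by edgeR were false. A failure to pass the limit does not show that the effects were equal. Of the 11 genes 10 had a positive interaction, a higher shNR4A3 to shNT ratio with LPS than without, and 3 are described here, chosen after their values were seen. KDM6B, a histone H3 lysine 27 demethylase that LPS induces in macrophages, without LPS had 15.2, 15.8 and 18.2 TPM in shNT and 12.3, 16.9 and 14.6 TPM in shNR4A3 cells. With LPS it had 74.4, 77.2 and 55.6 TPM and 108, 112 and 106 TPM. Its interaction was 0.84 on the log2 scale (adjusted p = 0.232 by edgeR and 0.00147 by DESeq2), and the lines overlapped without LPS and were apart with it. The noncoding RNA LINC01547 had 8.93, 8.23 and 7.45 and 7.204, 9.79 and 7.27 TPM without LPS against 15.02, 18.7 and 14.1 and 39.6, 33.5 and 33.7 TPM with LPS (interaction 1.21, adjusted p = 0.18 by edgeR and 0.000833 by DESeq2). CXCR4, the receptor for the chemokine CXCL12, was the exception, with 34.04, 24.4 and 23.2 and 73.6, 48.6 and 38.9 TPM without LPS and 37.7, 38.7 and 35.4 and 25.8, 29.7 and 19.3 TPM with LPS (interaction -1.56, adjusted p = 0.322 by edgeR and 0.00145 by DESeq2). Its shNR4A3 libraries lay above the shNT libraries without LPS and below them with LPS. With the replicate number as a block, edgeR gave an adjusted p of 0.018 for KDM6B, 0.0161 for LINC01547 and 0.0026 for CXCR4.

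The shNR4A2 line with LPS gave the test of what differed between the knockdowns. In the direct comparison of shNR4A3 with shNR4A2 cells, both with LPS, 165 genes (1.06%) were higher and 197 (1.27%) lower in shNR4A3 cells at an adjusted p under 0.05, 2.33% in either direction, and 44 (0.283%) and 105 (0.676%) with the 2-fold limit. The fit that blocked on the replicate number called 1827 higher and 1839 lower at any fold, and 107 higher and 272 lower at 2-fold. Leaving out any one of the 6 libraries brought the calls at any fold down to between 94 (without shNR4A3 replicate 1) and 217, and those at 2-fold to 61 without shNR4A3 replicate 1, 75 without shNR4A3 replicate 3 and 97 without shNR4A2 replicate 1. NR4A3 was lower (-0.98) and NR4A2 higher (1.15) in shNR4A3 cells (log2 fold changes, adjusted p = 0.00238 and 0.0352). PRDM6 was higher by 3.43 (standard error 0.167, adjusted p = 4.85e-05) over shNR4A2 cells, which had 0.837 ± 0.0678 TPM (SD, n = 3). FIGN was lower (log2 fold change -4.09, adjusted p = 0.000301) than in shNR4A2 cells, which had 5.22 ± 1.099 TPM (SD, n = 3). Against shNT cells the log2 fold changes in shNR4A2 cells were -0.03 for PRDM6 and 0.17 for FIGN (adjusted p = 0.954 and 0.529). IFI27 was higher by 1.90 (adjusted p = 0.000937) and XAF1 by 0.71 (adjusted p = 0.036), the 2 of the 30 interferon-stimulated genes called between the knockdown lines without the block. With the block 20 of the 30 were higher in shNR4A3 cells and none lower, where 1827 of 15539 genes were higher. The median log2 fold change of the 30 was 0.46 between the knockdown lines without the block, against -0.01 over all genes tested. Against the shared shNT libraries their median was 0.31 in shNR4A2 cells, with 3 called higher, and 0.72 in shNR4A3 cells. CKAP4 (log2 fold change -1.94, adjusted p = 0.000397), BEX1 (-2.46, adjusted p = 0.00238) and ITGB5 (-0.96, adjusted p = 0.00501) were lower in shNR4A3 cells. ITGA4, the α4 integrin chain, was higher by 1.53 (standard error 0.184, adjusted p = 0.00567), and against the shared shNT libraries its log2 fold change was 0.68 in shNR4A3 cells and -0.85 (adjusted p = 0.0195) in shNR4A2 cells. NCAM1 was at -0.28 (adjusted p = 0.436, or 0.0142 with the block) between the knockdown lines, with 10.7 ± 2.08 TPM (SD, n = 3) in shNR4A2 cells, and IL6 at 0.14 (adjusted p = 0.895). Against shNT, shNR4A2 cells with LPS also had higher LYZ (1.76), CSF1R (0.87) and ITGB2 (0.70) and lower HUNK (-2.94, log2 fold changes, adjusted p under 0.05 by edgeR). There 5 of 16 monocyte markers, 4 of 13 class II genes and 5 of 18 integrins were higher and 1 integrin lower. Of all 15590 genes tested 672 were higher and 413 lower. Between the knockdown lines no monocyte marker or class II gene was called without the block. With it 6 and 2 were higher and 2 and 2 lower. Both knockdown comparisons share the 3 shNT libraries, so their values against shNT are not independent.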

How the data were processed

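Polyadenylated RNA of the 18 cultures was sequenced in pairs of 150-base reads. Per the labels and the submitters' processing notes, the authors trimmed reads with Trimmomatic 0.36, aligned them to GRCh38 with STAR 2.5.2b and counted them per gene with featureCounts (Subread 1.5.2), and deposited raw counts. The strand setting is not given in the sources used here, so a gene and an overlapping or antisense gene may share reads.

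Here, counts were tested with edgeR 4.0.16 in R 4.3.3 (default filter on low counts, TMM scaling, quasi-likelihood test, Benjamini-Hochberg adjustment), with only the groups compared in each fit. TPM was computed from counts and the deposited gene lengths. DESeq2 1.42.0, other scaling, no filter, all 18 samples in 1 fit, the replicate number as a block and the omission of each library were tried as alternatives. In data simulated for shNR4A3 against shNT with LPS (15350 genes), edgeR recovered 84% of genes changed by 1 on the log2 scale. It recovered 100% of those changed by 1.5, 2 or 3, and 11.1% of its calls were false. By DESeq2 14.7% of the calls were false. Changes were placed only in genes with a mean count over 50, and no effect shared by same-numbered libraries was simulated. Recovery of genes of lower count was not tested. The main fits did not pair the samples, and the replicate numbers in the labels entered only the fits named as blocked. That block was tried since deviations of same-numbered libraries from their group means correlated (r = 0.195, 0.313 and 0.315 for shNT and shNR4A3 with LPS, and 0.354, 0.533 and 0.389 for the knockdown lines). Whether cultures of one number shared a day is not stated, so p-values measure the spread between these cultures of 1 line each.

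Named genes were the NR4A family, 12 genes named in the study's text for this comparison, the 12 most changed in fold and the 10 most changed in TPM in each direction among called genes whose groups did not overlap, and the called members of the gene lists. The 12 most changed in fold were taken from genes called at 2-fold with a mean of at least 1 TPM in 1 of the groups. Of the 350 genes called at 2-fold, 15 lay under that level. The members, lists and motifs were chosen with earlier results of these data known. Some called genes are not reported here.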

Additional observations from a re-analysis of the deposited data

How the results depend on the processing

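NR4A3 kept its direction and its call under every alternative, with log2 fold changes from -0.84 to -0.79. The 350 genes called at 2-fold became 31 when the test itself was set against a 2-fold change and 797 with a 1.4-fold limit, and 186 to 530 with each library left out. The 1005 genes called at any fold became 1839 with no filter on low counts and 383 to 1693 with each library left out. With the replicate number as a block they became 3401, and the block changed the calls of NR4A2 and CCL2 among the genes the rule named. DESeq2 (379 and 1374), RLE scaling (349 and 1002) and all 18 samples in 1 fit (406 and 1210) kept both counts within 1.5 times. The interaction of line and LPS, with 0 genes by edgeR, gave 11 by DESeq2, 138 with no filter and 0 to 44 with each library left out. The same-numbered libraries of the interaction were not all correlated over 0.1 (lowest r = 0.0266), and the replicate block gave 22 genes, 11 of them also called by DESeq2. The 149 genes between shNR4A3 and shNR4A2 at 2-fold became 229 by DESeq2, 268 with all 18 samples in 1 fit, 327 with no filter, 379 with the replicate block and 61 to 117 with each library left out. The 362 at any fold became 804, 1032, 1102, 3666 and 94 to 217 in the same order. The causes of these shifts were not tested. Depth of 16171161 to 21602737 counts limits genes such as CACNA2D1, with 8 counts in all 3 shNT libraries.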

Other observations

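Few genes of sterol synthesis were called. Of 17 genes of cholesterol synthesis and uptake 16 were tested and 2 were higher, where 3.99% of all genes tested were higher (median log2 fold change of the list 0.11). They were INSIG1, which retains the sterol sensor in the endoplasmic reticulum, and HMGCS1, an early enzyme of the pathway. INSIG1 had 91.2, 102 and 80.95 TPM in shNT cells and 179.7, 171 and 140.5 TPM in shNR4A3 cells (log2 fold change 0.90, adjusted p = 0.0018 by edgeR), without overlap. HMGCS1 had 130.2, 160.5 and 129.5 TPM and 190.3, 211 and 160.1 TPM (log2 fold change 0.48, adjusted p = 0.0278 by edgeR), with overlapping groups. HMGCS1 lost its call without shNR4A3 replicate 1 or shNT replicate 1 or 3 (adjusted p of up to 0.0975) and with all 18 samples in 1 fit. SQLE, a later enzyme, had a log2 fold change of -0.35 (adjusted p = 0.0548, or 0.00126 with the replicate block). The block gave 6 higher and 1 lower, where 12.3% of all genes tested were higher and 9.5% lower. With single libraries left out, 1 to 4 genes of the list were called, 1 without shNR4A3 replicate 1 or shNT replicate 1 or 3 and 4 without shNR4A3 replicate 2.

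Of 15 proliferation genes AURKB, a mitotic kinase, was the only one called (log2 fold change 0.44, adjusted p = 0.0319 by edgeR), where 6.45% of all genes tested were called. It went from 28.1, 30.3 and 28.4 TPM to 32.7, 42.6 and 38.1 TPM. The call was lost without shNR4A3 replicate 3 or any 1 of the 3 shNT libraries (adjusted p of up to 0.112) and with all 18 samples in 1 fit, where no gene of the list was called, while 2 were called without shNR4A3 replicate 2. With the replicate block 2 of the 15 were higher and 2 lower, where 12.3% of all genes tested were higher and 9.5% lower. None of 15 heat shock and unfolded protein response genes and none of 13 mitochondrial mRNAs was called by edgeR with its filter, all 6 libraries and no block. With no filter on low counts 2 genes of each list were called. DESeq2 called 1 heat shock gene, and 1 mitochondrial mRNA was called without shNR4A3 replicate 2. Of the heat shock list 3 were higher and 2 lower with the replicate block, and 2 were called without shNR4A3 replicate 1. All 13 mitochondrial mRNAs had log2 fold changes above 0, from 0.03 to 0.37, and with the replicate block 7 of them were called higher. Their summed level was 69545, 57274 and 75867 TPM in shNT cells and 71474, 75262 and 78488 TPM in shNR4A3 cells, with overlapping groups.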
